A study of Mus musculus with 4 samples.

Results

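The death receptor pathway was examined in the thyroid of NOD.H-2h4 mice after blockade of PD-L1, which binds PD-1 on T cells and restrains them. The pathway was taken as 10 genes, named by symbol when earlier results of these data were known. They were the ligands Fasl and Tnfsf10, the receptors Fas, Tnfrsf10b and Tnfrsf1a, the adaptors Fadd and Tradd, the kinase Ripk1, the initiator caspase Casp8 and its regulator Cflar. Of these, 9 were among the 16218 gene symbols of the deposited count table. Fasl was not, and it is not analysed here.

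Death receptors are cell-surface proteins of the TNF receptor family whose cytoplasmic part carries a death domain. When Fas or the TRAIL receptor is bound by its ligand, the adaptor FADD joins it and recruits caspase-8, which is activated by dimerization and then cleaves executioner caspases. TNFR1 first assembles TRADD and RIPK1 at the membrane, a complex that signals mainly to NF-kB, and can pass to a death-inducing complex with FADD and caspase-8. The Cflar product, c-FLIP, resembles caspase-8 without its enzymatic activity and restrains it. Killing of thyroid follicular cells through Fas and TRAIL is a proposed route of tissue loss in autoimmune thyroiditis.

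Each group held 2 libraries. The anti-PD-L1 group came from NOD.H-2h4 mice injected with a monoclonal antibody against PD-L1, and the IgG group from mice of the same strain injected with an isotype control antibody, 3 times a week for 2 weeks in each case. NOD.H-2h4 is an inbred strain prone to autoimmune thyroiditis, so the IgG thyroids are those of a susceptible strain. The study asked which genes and pathways of the thyroid PD-L1 blockade alters, and the labels give neither age nor sex. The batch label holds a different antibody clone string for each library (10F.9G2 and 10F.9G3 in the anti-PD-L1 group, LTF2 and LTF3 in the IgG group), so it could not enter a model. Nothing in the labels says whether the mice shared a litter or a day. The p-values set the difference between groups against the spread within groups of these 4 libraries, a spread estimated partly from other genes.

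Library totals were 75591923 and 77685257 counts in the anti-PD-L1 group and 79663374.5 and 77492328 counts in the IgG group. The thyroid label fitted the marker genes, since Tg, the gene of thyroglobulin, took 16.95% of counts in anti-PD-L1 replicate 2 and 15.3% and 14.6% in the IgG libraries. Anti-PD-L1 replicate 1 stood apart with 4.34%. It held the lowest value of 10 of 13 follicular cell markers, beside 4974 of the 16217 genes tested. It also differed in Xist, an RNA made from an inactive X chromosome (1.40 CPM there, counts scaled to library size with TMM factors, and 67.7 to 72.7 CPM elsewhere), and in the Y-linked gene Ddx3y (62.6 CPM there and 0.350 to 0.790 CPM elsewhere). By Xist and Ddx3y, anti-PD-L1 replicate 1 had the pattern of a male and every other library that of a female. Follicular markers, Xist and Ddx3y therefore split the anti-PD-L1 group, and the log2 fold changes of the members are also given with libraries left out. The part of sex in the members' values was not tested. These are bulk samples, in which fewer cells of a type and less RNA per cell cannot be told apart.

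No gene of the pathway passed the test. With edgeR's quasi-likelihood F test, adjusted over 16217 genes by Benjamini-Hochberg at a threshold of 0.05, 0 of the 9 listed members were called, as were 0% of all genes in each direction. At an unadjusted p under 0.05, 1 member (Tnfsf10) had a higher value in anti-PD-L1 and 0 had a lower one, where 6.06% of all genes met that level, 4.96% higher and 1.1% lower. limma voom also called 0 of the 9, and DESeq2 called 0, beside 2.93% of all genes called higher and 0.327% called lower. Log2 fold changes, as anti-PD-L1 minus IgG, ran from −0.02 for Fadd to 0.87 for Tnfsf10, with 8 of 9 above 0, beside 50% of all genes. Their median was 0.25, beside 0.0002 over all genes tested. In 6 of the 9 genes the groups did not overlap and anti-PD-L1 was higher, beside 16.5% of all genes, and in 0 of the 9 was it lower without overlap, beside 13.1% of all genes. The count was 5 when counts were scaled by library size alone, because Casp8 then overlapped.

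**Figure D1:**
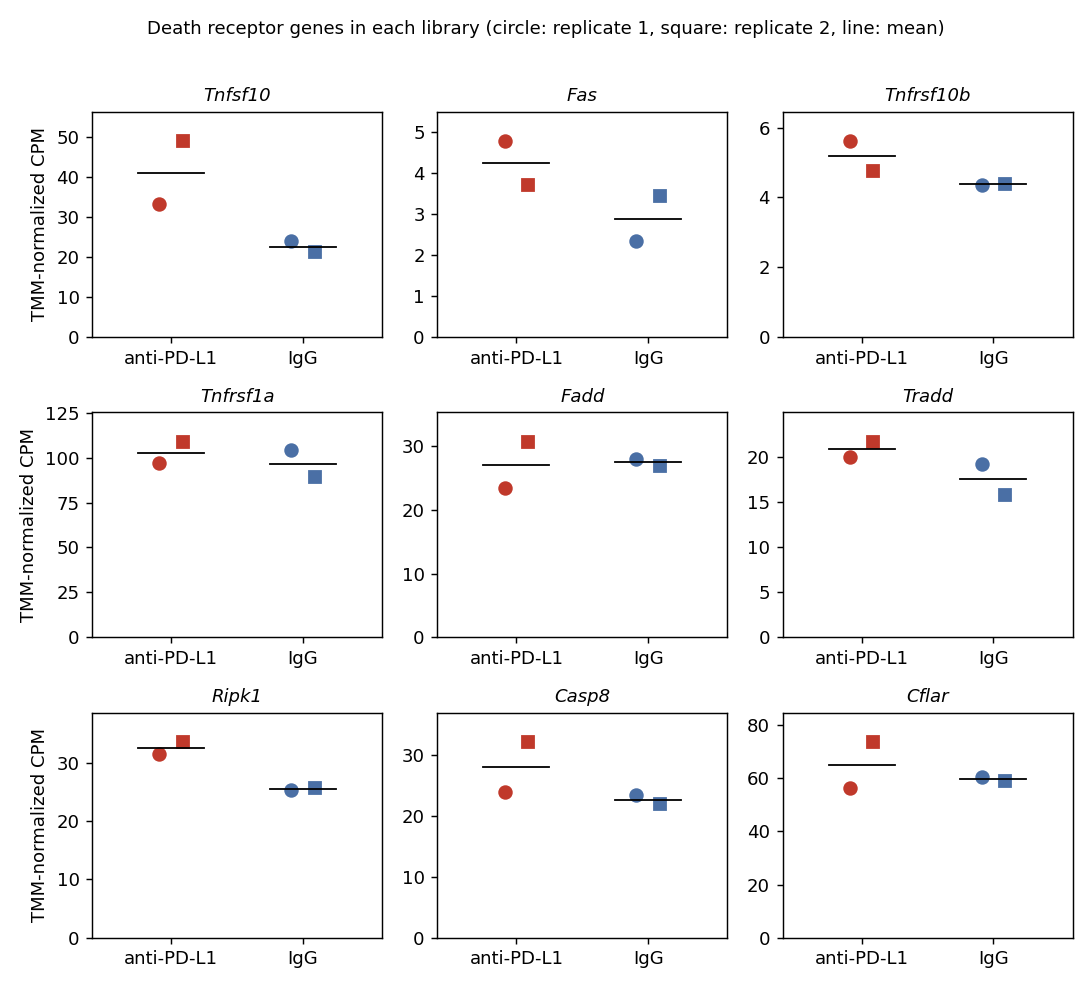
TMM-normalized CPM (y axis, linear from 0) of each listed death receptor gene in the 2 anti-PD-L1 and 2 IgG libraries, with circles for replicate 1, squares for replicate 2 and lines for group means. Both anti-PD-L1 points lie above both IgG points in Tnfsf10, Fas, Tnfrsf10b, Tradd, Ripk1 and Casp8, while the groups overlap in Tnfrsf1a, Fadd and Cflar.

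Tnfsf10, the listed ligand, had the largest fold change of the 9 genes with all 4 libraries. It encodes TRAIL, a membrane-bound death ligand that interferons are known to induce, and lies on the plus strand of chromosome 3 (27317028 to 27342427, GRCm38). It had 33.1 and 48.8 CPM in anti-PD-L1 libraries, from 2430 and 3955 counts, against 23.8 and 21.1 CPM in IgG libraries, from 1906 and 1607 counts. The groups did not overlap, and the anti-PD-L1 libraries differed from each other by more than the IgG libraries did. The mean level was 40.9 ± 11.1 CPM in anti-PD-L1 and 22.5 ± 1.93 CPM in IgG (SD, n = 2 each), a 1.82-fold difference with a log2 fold change of 0.87 ± 0.24 (SE; 95% interval 0.22 to 1.51). It did not pass over all genes (edgeR adjusted p = 0.534, DESeq2 adjusted p = 0.14), and ranked 590 of 16217 genes by edgeR p.

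The size of the Tnfsf10 difference depended on which anti-PD-L1 library was kept. The log2 fold change was 0.55 without anti-PD-L1 replicate 2 (edgeR adjusted p = 0.349) and 1.12 without anti-PD-L1 replicate 1 (edgeR adjusted p = 0.318). Without an IgG library it was 0.78 to 0.94. With DESeq2 the log2 fold change of Tnfsf10 without anti-PD-L1 replicate 1 was also 1.12. That fit was chosen after seeing the data, and in it the lone treated library is assumed to vary like the IgG libraries. Among genes averaging at least 1 CPM, the 3 whose log2 CPM followed Tnfsf10 most closely over the 4 libraries were A430093F15Rik, Tapbp and Adar, at Euclidean distances of 0.077, 0.09 and 0.11 between deviations from each gene's mean. Tapbp, which encodes the peptide-loading factor tapasin, had 208 and 296 CPM in anti-PD-L1 and 150.1 and 123 CPM in IgG. Adar, an RNA-editing enzyme gene, had 65.5 and 97.8 CPM in anti-PD-L1 and 47.5 and 45.9 CPM in IgG. With 4 libraries and 16217 genes such closeness is a description only.

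The receptor genes Fas and Tnfrsf10b had groups that did not overlap, and Tnfrsf1a did not separate the groups. Fas, on the plus strand of chromosome 19 (34290666 to 34327772), encodes the receptor of Fas ligand. It had 4.76 and 3.69 CPM in anti-PD-L1 libraries, from 349.5 and 299 counts, against 2.33 and 3.44 CPM in IgG libraries, from 186 and 262.5 counts. The groups did not overlap, but IgG replicate 2 lay close to anti-PD-L1 replicate 2. The means were 4.23 ± 0.759 CPM in anti-PD-L1 and 2.88 ± 0.788 CPM in IgG (SD, n = 2 each), a log2 fold change of 0.55 ± 0.31 with an interval of −0.28 to 1.38 (edgeR adjusted p = 1). Without anti-PD-L1 replicate 1 the log2 fold change was 0.36 and without anti-PD-L1 replicate 2 it was 0.71, while leaving out IgG replicate 1 gave 0.28 and IgG replicate 2 gave 0.86. Fas was above Tnfsf10 in log2 fold change without anti-PD-L1 replicate 2 (0.71 against 0.55) and without IgG replicate 2 (0.86 against 0.78), and the difference between these genes was not tested. The genes nearest to Fas by the same distance were Per2, Tnfrsf26 and Pim2 (0.05, 0.075 and 0.081). Per2 is a circadian clock gene, and had 10.5 and 8.21 CPM in anti-PD-L1 and 5.08 and 7.30 CPM in IgG.

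The stretches upstream of these genes are shown because Tnfsf10 and Fas, a death ligand and a death receptor, had the largest fold changes of the 9 with all 4 libraries. They come from RefSeq on GRCm38.p6, plus strand, chr3:27316827-27317027 for Tnfsf10 and chr19:34290409-34290658 for Fas, and each ends before the first annotated base of the gene. Capitals mark a match to TTCNNNGAA, the letters of the gamma-activated site, an element of interferon-gamma target genes.
Tnfsf10: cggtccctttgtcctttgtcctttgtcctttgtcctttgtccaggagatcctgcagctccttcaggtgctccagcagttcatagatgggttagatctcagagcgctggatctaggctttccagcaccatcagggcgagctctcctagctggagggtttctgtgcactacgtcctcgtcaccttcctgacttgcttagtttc
Fas: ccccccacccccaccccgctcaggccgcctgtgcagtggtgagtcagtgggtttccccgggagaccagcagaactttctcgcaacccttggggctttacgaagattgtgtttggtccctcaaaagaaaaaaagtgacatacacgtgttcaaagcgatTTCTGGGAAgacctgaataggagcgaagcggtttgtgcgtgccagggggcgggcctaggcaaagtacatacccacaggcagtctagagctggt

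Both strands were searched for TTCNNNGAA and for the core of an interferon-stimulated response element, GAAA, any 2 bases and GAAA again. Fas held 1 match to TTCNNNGAA, starting at position −93 from the RefSeq start, where 7.02% of all 32851 RefSeq windows of 250 bases hold one. The 201 bases of Tnfsf10 held neither motif, where 5.8% of windows of that length hold TTCNNNGAA and 2.42% hold the response element core. RefSeq windows were at hand for 7 of the 9 genes. In the 250 bases before a RefSeq start, 3 of the 7 (Fas, Tnfrsf1a and Ripk1) held TTCNNNGAA and 0 held the response element core, which 2.98% of all windows of that length hold. The matching windows of Tnfrsf1a and Ripk1 lie within the annotated gene and not before it. The 7 genes had 8 windows, and the earlier window of Ripk1 held no match, so a count of genes is unlike a share of windows. A match is a run of letters and not a measured binding site, and a window without one leaves binding elsewhere unexamined.

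Tnfrsf10b, on chromosome 14 (69767472 to 69784411), encodes the mouse death receptor for TRAIL. It had 5.61 and 4.75 CPM in anti-PD-L1 libraries against 4.35 and 4.39 CPM in IgG libraries. The groups did not overlap, though the IgG libraries were nearly equal and anti-PD-L1 replicate 2 was close to them. The log2 fold change was 0.25 ± 0.22, with an interval of −0.34 to 0.83 (edgeR adjusted p = 1). It was 0.12 without anti-PD-L1 replicate 1, 0.35 without anti-PD-L1 replicate 2 and 0.22 to 0.25 without an IgG library. Tnfsf10 counts exceeded Tnfrsf10b counts 5.90-fold and 10.3-fold in the anti-PD-L1 libraries and 5.48-fold and 4.81-fold in the IgG libraries. This ratio within a library does not depend on scaling. Its groups did not overlap, and 2 against 2 libraries cannot give an exact two-sided permutation p below 0.333, the value it had.

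Tnfrsf1a, the gene of TNFR1 on chromosome 6 (125349362 to 125362484), had overlapping groups. Its values were 96.8 and 109 CPM in anti-PD-L1 and 104 and 89.0 CPM in IgG. The log2 fold change of 0.09 ± 0.18, with an interval of −0.39 to 0.58, was 0.17 without anti-PD-L1 replicate 1 and 0.19 without IgG replicate 1. It was below 0 without anti-PD-L1 replicate 2 (−0.0076) and without IgG replicate 2 (−0.017). Tnfrsf1b, which encodes TNFR2, a TNF receptor without a death domain that is known mainly from leukocytes and endothelium, had 33.2 and 39.6 CPM in anti-PD-L1 and 5.93 and 13.0 CPM in IgG. Its log2 fold change was 1.95 ± 0.43 (edgeR adjusted p = 0.359, DESeq2 adjusted p = 0.00124), and was 1.47 without IgG replicate 1 and 2.62 without IgG replicate 2. The difference between the fold changes of these TNF receptors was not tested.

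Of the adaptor genes, Fadd had overlapping groups and Tradd did not. Fadd, on the minus strand of chromosome 7 (144577318 to 144582463), encodes the adaptor that joins Fas and TRAIL receptors to caspase-8. It had 23.4 and 30.7 CPM in anti-PD-L1 and 28.0 and 26.9 CPM in IgG. Anti-PD-L1 replicate 1 was the lowest library and anti-PD-L1 replicate 2 the highest, so the groups overlapped. The log2 fold change was −0.02 ± 0.19, with an interval of −0.53 to 0.49, and its sign turned with library-size scaling (0.0076) and without anti-PD-L1 replicate 1 (0.16). Exons of Fadd overlap those of Faddos on the opposite strand, and since the strand setting of the counting is not given, their reads cannot be told apart.

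Tradd, the adaptor gene of TNFR1 on chromosome 8 (105258286 to 105264609), had 19.9 and 21.6 CPM in anti-PD-L1 and 19.2 and 15.8 CPM in IgG. The groups did not overlap, with anti-PD-L1 replicate 1 only just above IgG replicate 1. The log2 fold change was 0.25 ± 0.18, with an interval of −0.23 to 0.73 (edgeR adjusted p = 1). It was 0.38 without IgG replicate 1, 0.12 without IgG replicate 2 and 0.18 to 0.31 without an anti-PD-L1 library.

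Ripk1, on chromosome 13 (34002363 to 34037147), encodes the kinase that stands between NF-kB signalling and cell death. It had 31.5 and 33.6 CPM in anti-PD-L1, from 2314 and 2720 counts, against 25.3 and 25.7 CPM in IgG, from 2022 and 1960 counts. The libraries of each group lay close together and the groups did not overlap. The means were 32.5 ± 1.47 CPM in anti-PD-L1 and 25.5 ± 0.317 CPM in IgG (SD, n = 2 each), a log2 fold change of 0.35 ± 0.14, with an interval of −0.03 to 0.73 that held 0 (edgeR adjusted p = 0.895). Leaving out single libraries gave 0.29 to 0.40, the narrowest range of the 9 genes. Ripk1 exons overlap those of Serpinb6a on the opposite strand, so some of its reads are uncertain.

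Casp8 and its regulator Cflar lie next to each other on the plus strand of chromosome 1, Cflar from 58711508 to 58758884 and Casp8 from 58795374 to 58847503, with 36489 bases between them. Casp8 had 23.9 and 32.0 CPM in anti-PD-L1 and 23.3 and 21.9 CPM in IgG. Cflar had 56.4 and 73.6 CPM in anti-PD-L1 and 60.3 and 59.1 CPM in IgG. In both genes anti-PD-L1 replicate 2 was the highest library, while anti-PD-L1 replicate 1 was near the IgG libraries for Casp8 and below them for Cflar.

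The log2 fold changes were 0.31 ± 0.20 for Casp8 and 0.12 ± 0.19 for Cflar, with intervals of −0.23 to 0.85 and −0.38 to 0.63 (edgeR adjusted p = 1 for each). Without anti-PD-L1 replicate 2 they were 0.07 and −0.096, and without anti-PD-L1 replicate 1 they were 0.51 and 0.30. The ratio of Casp8 to Cflar counts within a library was 0.424 and 0.435 in the anti-PD-L1 libraries against 0.386 and 0.370 in the IgG libraries, with groups that did not overlap (exact two-sided permutation p = 0.333, the smallest possible).

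**Figure D2:**
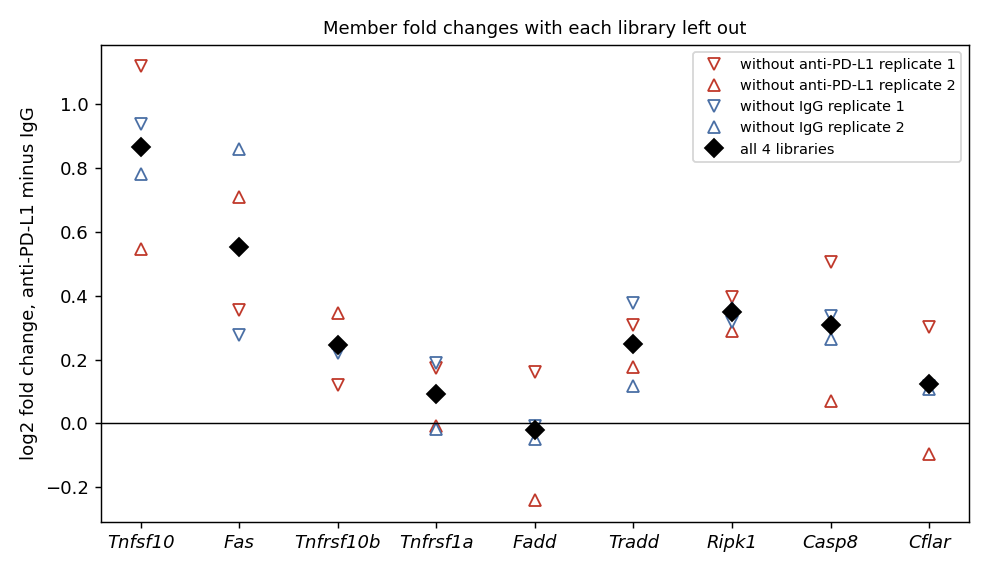
Log2 fold change (y axis, anti-PD-L1 minus IgG) of the 9 genes from edgeR with all 4 libraries (black diamonds) and with each library left out (open triangles, red for an anti-PD-L1 library and blue for an IgG library). Ripk1 stays between 0.29 and 0.40, Casp8 lies between 0.07 and 0.51, and Tnfrsf1a, Fadd and Cflar have values on both sides of 0.

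Within the anti-PD-L1 group, 7 of the 9 genes were higher in replicate 2 than in replicate 1, beside 49.3% of all genes tested, and the other 2 were Fas and Tnfrsf10b. Follicular cell markers had the same order in 12 of 13 genes, with summed levels of 46185 and 167320 CPM in replicates 1 and 2 of anti-PD-L1, against 155860 and 150400 CPM in IgG libraries. Squamous epithelium markers had the opposite order in 9 of 9 genes, summed to 4569 and 78.3 CPM in anti-PD-L1 replicates 1 and 2 and to 11042 and 2949 CPM in IgG libraries. The part of tissue make-up in the members' values was not tested.

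Levels of different genes were compared per kilobase of annotated exon. In the anti-PD-L1 libraries Tnfrsf1a was highest at 37.4 and 42.0 CPM per kb, followed by Tradd at 10.7 and 11.6, and Tnfrsf10b was lowest at 1.03 and 0.872 CPM per kb. In the IgG libraries the order of these 3 genes was the same, with 40.2 and 34.4 CPM per kb for Tnfrsf1a, 10.3 and 8.46 for Tradd and 0.798 and 0.805 for Tnfrsf10b. TNFR1 mRNA was more abundant per length than that of either Fas or the TRAIL receptor in every library.

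In IgG the order ran from Tnfrsf1a through Tradd, Casp8, Fadd, Cflar, Tnfsf10, Ripk1 and Fas to Tnfrsf10b, and no neighbours overlapped between libraries. In anti-PD-L1 the mean per kb put Tnfsf10 (6.28 and 9.27 CPM per kb) above Fadd (6.01 and 7.87) and Cflar (4.45 and 5.81). Tnfsf10 then overlapped with its neighbours Casp8 (8.26 and 11.1) and Fadd, and Casp8 overlapped with Tradd. The place of Cflar depends on the length used. Per kilobase of the longest annotated transcript, Cflar averaged 9.09 CPM per kb in IgG, above Casp8 at 8.73, while per kilobase of all exons it averaged 4.71, below Casp8 at 7.80.

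**Figure D3:**
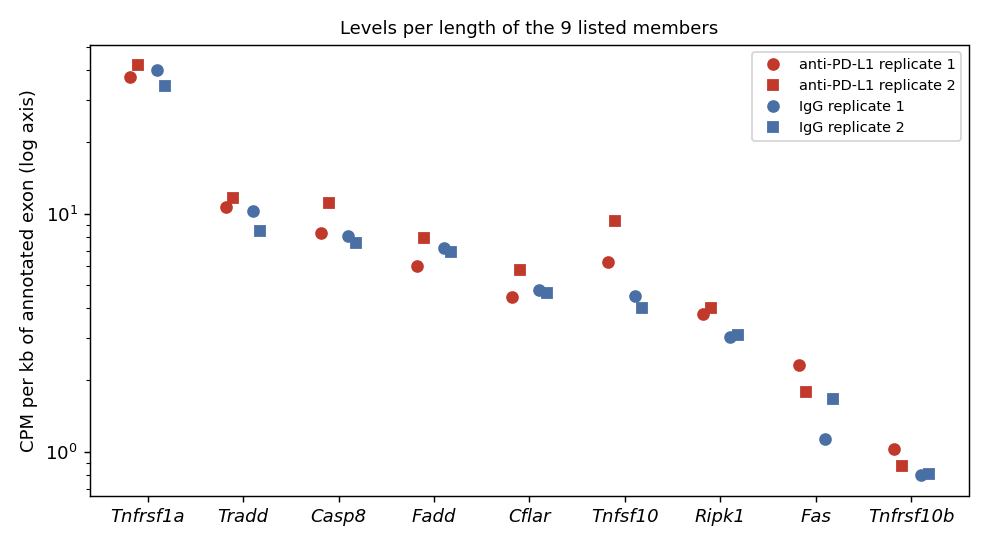
CPM per kilobase of annotated exon (y axis, log scale) of the 9 genes, ordered by their mean in IgG, with anti-PD-L1 libraries in red at the left and IgG libraries in blue at the right of each gene. Tnfrsf1a lies at 34.4 to 42.0 CPM per kb and Tnfrsf10b at 0.798 to 1.03, and the anti-PD-L1 points of Tnfsf10 lie above its IgG points.

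A wider list of 44 genes, all of them measured, covered other ligands and receptors, TRAF and IAP proteins, caspases, the ubiquitin ligases and deubiquitinases of the TNF receptor complex, and necroptosis genes. edgeR called 0 of the 44. At an unadjusted p under 0.05, 5 had a higher value and 0 a lower one, beside 4.96% and 1.1% of all genes. DESeq2 called 2 of the 44 higher and 0 lower, beside 2.93% and 0.327% of all genes, so that its share of calls was near that of all genes. The median log2 fold change was 0.17, with 35 above 0 and 9 below. Groups did not overlap in 20 genes with higher values in anti-PD-L1 (45.5%, beside 16.5% of all genes) and in 2 with lower values (4.55%, beside 13.1%). Across the 4 scalings the number with higher values was 18 to 20 and the number with lower values was 2 to 4.

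The genes DESeq2 called were Tnfrsf1b, given above, and Traf1. Traf1 encodes an adaptor of TNFR2 that is induced by NF-kB in activated lymphocytes. It had 18.5 and 20.96 CPM in anti-PD-L1 and 7.80 and 8.85 CPM in IgG, with a log2 fold change of 1.25 ± 0.18 (SE; edgeR adjusted p = 0.2, DESeq2 adjusted p = 3.03e-05). Its groups stood clear of each other and its log2 fold change was 1.14 to 1.34 with each library left out.

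Casp6 and Bid, which act downstream of caspase-8, had higher values in anti-PD-L1 without overlap, although neither passed over all genes. Casp6, the gene of a caspase that cleaves lamins, had 19.97 and 22.5 CPM in anti-PD-L1 and 18.1 and 17.6 CPM in IgG (log2 fold change 0.25 ± 0.16). Bid, the BH3-only protein through which caspase-8 reaches the mitochondria, had 11.8 and 11.7 CPM in anti-PD-L1 and 8.33 and 8.93 CPM in IgG (log2 fold change 0.45 ± 0.17). Their edgeR adjusted p-values were 0.849 or higher. Bid exons overlap those of Bcl2l13 on the opposite strand, so some of its reads are uncertain. Casp9, which acts in the mitochondrial route, had overlapping groups (log2 fold change 0.08 ± 0.17), and shares exon positions with Cela2a on the opposite strand.

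Genes that ubiquitinate or bind the TNF receptor complex had small differences. Birc3, the gene of the ubiquitin ligase cIAP2, had 35.2 and 41.5 CPM in anti-PD-L1 and 28.7 and 28.2 CPM in IgG, with a log2 fold change of 0.43 ± 0.16 (SE; edgeR adjusted p = 0.8). Rnf31, the catalytic subunit of the linear ubiquitin ligase, had 36.8 and 44.4 CPM in anti-PD-L1 and 30.7 and 28.1 CPM in IgG, but its exons overlap those of the interferon pathway gene Irf9 on the same strand. Its partners Rbck1 and Sharpin had log2 fold changes of 0.27 ± 0.14 and 0.22 ± 0.17, and Birc2, Traf2, Cyld and Ikbkb had 0.24, 0.14, 0.22 and 0.20. Without anti-PD-L1 replicate 1 Sharpin had 0.09. These 8 genes did not overlap between groups, beside 16.5% of all genes higher without overlap. Cyld, Sharpin, Ikbkb and Traf2 were named for not overlapping, and Birc3, Rnf31, Rbck1 and Birc2 for their small p. The count therefore follows in part from how the genes were picked. All 8 had edgeR adjusted p-values of 0.776 or higher. Other genes that act at this complex had overlapping groups: log2 fold changes were 0.21 ± 0.26 for Tnfaip3, which encodes the ubiquitin-editing enzyme A20, −0.0097 ± 0.17 for the deubiquitinase gene Otulin, 0.02 ± 0.15 for Ikbkg, −0.04 ± 0.14 for Map3k7, 0.08 ± 0.22 for Tab2 and 0.10 ± 0.20 for Tab3. Itch, Tax1bp1, Spata2 and Usp4 also overlapped, with 0.11, 0.09, −0.07 and −0.11. Exons of Ikbkg and Spata2 overlap those of G6pdx and Rnf114 on the opposite strand, so some of their reads are uncertain. Xiap, the inhibitor of executioner caspases, had overlapping groups with a log2 fold change of 0.05 ± 0.19.

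Other ligands and receptors of the family varied. Lta, the gene of lymphotoxin alpha, had 16.1 and 15.6 CPM in anti-PD-L1 and 12.9 and 10.0 CPM in IgG (log2 fold change 0.47 ± 0.20), while Tnf had overlapping groups, with 3.51 and 0.987 CPM in anti-PD-L1 and 1.49 and 1.75 CPM in IgG. Tnfrsf25, the gene of the death receptor DR3, had 1.58 and 1.48 CPM in anti-PD-L1 and 0.80 and 1.34 CPM in IgG. Tnfrsf22, a mouse TRAIL decoy receptor gene, ran the other way, with 6.86 and 6.58 CPM in anti-PD-L1 and 7.70 and 8.12 CPM in IgG (log2 fold change −0.24 ± 0.19). Another such gene, Tnfrsf23, had overlapping groups, with 4.71 and 3.30 CPM in anti-PD-L1 and 4.65 and 4.70 CPM in IgG (log2 fold change −0.225 ± 0.27). Among the genes of necroptosis, Ripk3 had 8.14 and 9.29 CPM in anti-PD-L1 and 6.70 and 4.95 CPM in IgG (log2 fold change 0.58 ± 0.25), while Mlkl overlapped. Of the remaining named genes, Daxx and Faim had log2 fold changes of 0.30 ± 0.15 and 0.29 ± 0.19 and groups that did not overlap. None of the genes of this paragraph passed with edgeR (adjusted p 0.927 or higher) or with DESeq2.

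**Figure D4:**
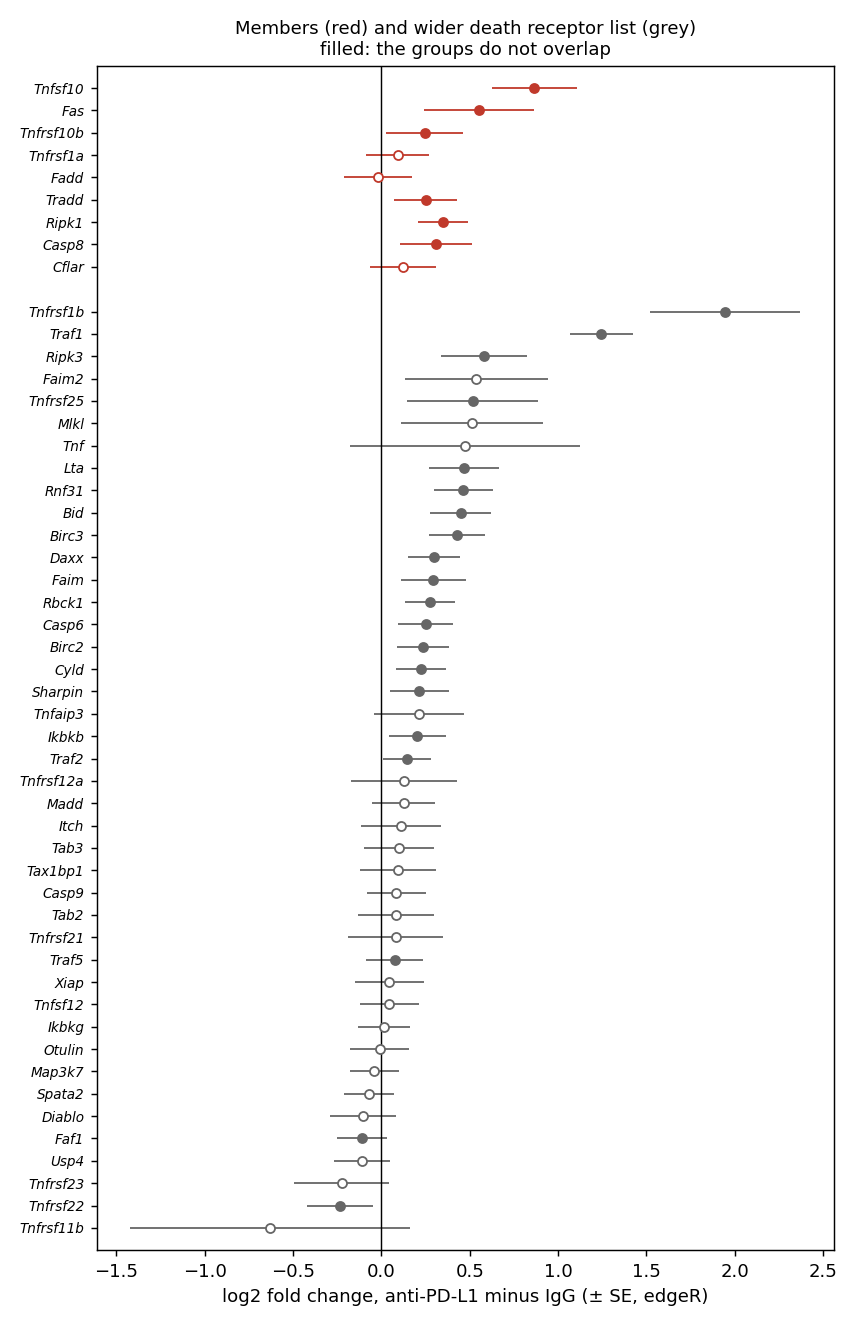
Log2 fold change (x axis, anti-PD-L1 minus IgG, ± SE from edgeR, n = 2 per group) of the 9 listed members in red and of genes of the wider list in grey, with filled points where the groups do not overlap. Among the members Tnfsf10 lies farthest right (0.87), and Tnfrsf1b (1.95) and Traf1 (1.25) stand to the right of all others.

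Markers of T cells, of cytotoxic and NK cells and of the interferon response had larger fold changes between the same groups than the members. All 14 interferon response genes, 12 of 12 T cell markers and 11 of 11 measured cytotoxic and NK cell markers were higher in anti-PD-L1 without overlap. Over all genes the share was 16.5%. The median log2 fold changes of these lists were 2.48, 1.96 and 2.57. Summed levels were 1514 and 1623 CPM in anti-PD-L1 against 306 and 307 CPM in IgG for the interferon list. T cell markers summed to 170 and 173 CPM in anti-PD-L1 against 31.9 and 60.2 CPM in IgG, and cytotoxic and NK cell markers to 48.8 and 55.0 CPM in anti-PD-L1 against 6.62 and 10.5 CPM in IgG. The groups stood clear of each other in all 3 sums. Perforin (Prf1), the pore-forming protein of the other main killing route of these cells, had 2.93 and 3.17 CPM in anti-PD-L1 and 0.463 and 0.565 CPM in IgG.

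In the macrophage list 8 of 12 markers had groups that did not overlap, all 8 higher in anti-PD-L1, beside 16.5% of all genes. Fcgr1, the marker of smallest p, had 10.9 and 10.5 CPM in anti-PD-L1 and 2.04 and 2.25 CPM in IgG. Log2 fold changes were above 0 in 10 markers and below 0 in 2, Mertk (−0.28) and Cd14 (−0.67), whose groups overlapped. The summed macrophage level, which Lyz2 dominates, did not separate the groups (12666 and 3239 CPM in anti-PD-L1, 1163 and 5824 CPM in IgG). B cell markers had 0 of 8 genes without overlap in either direction, beside 16.5% of all genes higher and 13.1% lower. They summed to 146 and 74.2 CPM in anti-PD-L1 and to 42.1 and 123 CPM in IgG. Airway and muscle markers also had none, of 9 and 7 genes, with sums of 3126 to 9774 and 17549 to 50278 CPM in anti-PD-L1 and 866 to 7712 and 29125 to 40030 CPM in IgG. Of the 6 cartilage markers 5 were lower in anti-PD-L1 without overlap, beside 13.1% of all genes. The list summed to 40.6 and 41.4 CPM in anti-PD-L1 and to 114 and 147 CPM in IgG, and DESeq2 called 4 of its markers lower. None of these marker genes passed with edgeR, while DESeq2 called 14 interferon, 9 T cell, 10 cytotoxic and 8 macrophage markers higher. It called 0 of the B cell, airway, muscle or squamous markers. Of all genes, DESeq2 called 2.93% higher and 0.327% lower. No listed marker was at 0 in any library. Several members and genes of the wider list are expressed in leukocytes too, and the part of these cells in the differences given above was not tested.

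**Figure D5:**
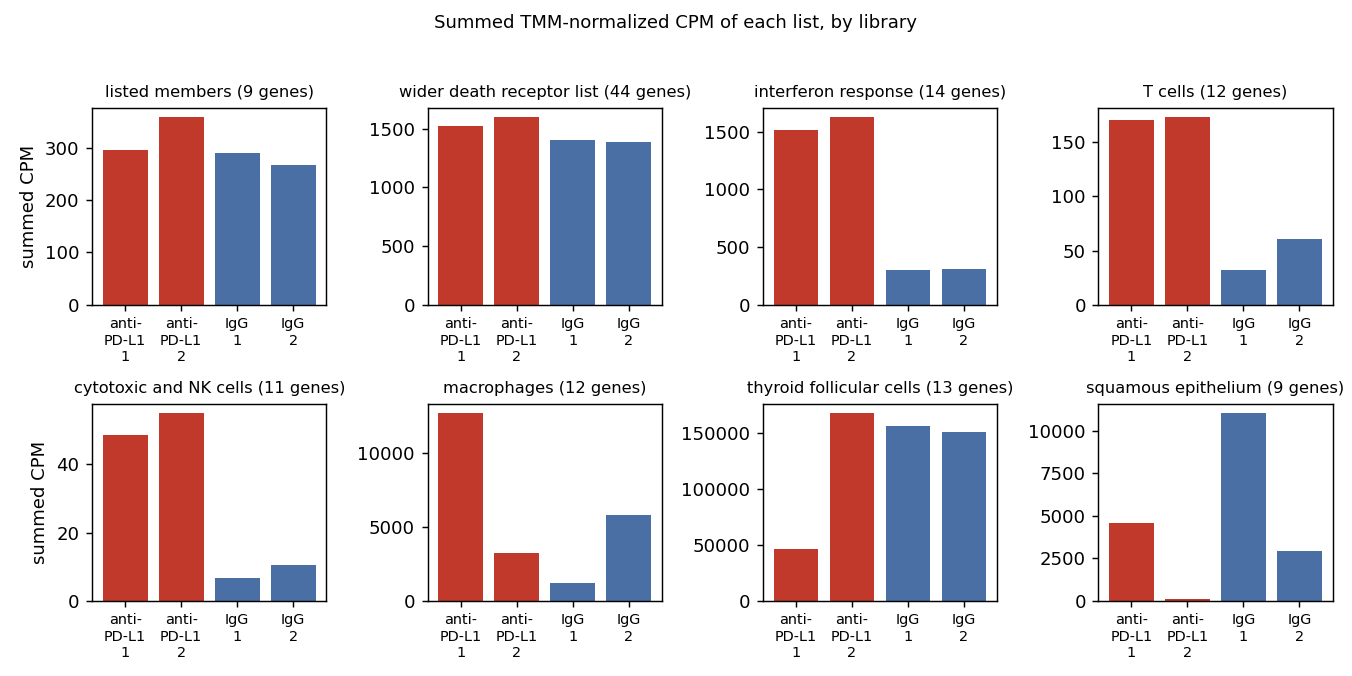
Summed TMM-normalized CPM (y axis, linear from 0, a scale for each panel) of the listed members, the wider list and 6 marker lists in each library, anti-PD-L1 in red and IgG in blue. The interferon, T cell and cytotoxic panels separate the groups. The members' sums also do not overlap but lie closer together (295 and 358 CPM in anti-PD-L1, 291 and 267 CPM in IgG). The same holds for the wider list (1525 and 1597 CPM in anti-PD-L1, 1407.5 and 1391 CPM in IgG). Anti-PD-L1 replicate 1 is low in follicular markers.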

How the data were processed

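Thyroid RNA was poly(A)-selected and sequenced as paired-end reads of 150 bases, per the labels' protocols. The authors deposited 1 table of unnormalized expected counts, with a gene symbol for each line. BWA and the mm10 build are named, per the submitters' processing notes. How reads were counted (program, annotation, strand) and which genes were kept is not given in the sources used. Counts ended in 0.5 in 20.5% of genes, 13 blank cells were read as 0, and each listed gene reached 100 counts in at least 1 library.

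Counts were rounded and tested with edgeR 4.0.16 in R 4.3.3 (filterByExpr, TMM factors, robust quasi-likelihood F test on group, two-sided, residual degrees of freedom 2). Standard errors were derived from F (log2 fold change over its root), and intervals are 95% t intervals. A count of 3 equals 0.0377 to 0.0397 CPM, for counting error only. Replicates of a group differed by far more than sampling noise (chi-square over its degrees of freedom 1056 in anti-PD-L1 and 321 in IgG). The steps were tested on simulated data. Alternatives were other scalings and filters, DESeq2 1.42.0, limma 3.58.1 voom, the replicate block, Tg left out and each library left out. Positions, lengths and overlaps came from GENCODE M21 on GRCm38, also called mm10.

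Members and lists were chosen with earlier results of these data known. The text names all listed members, the 14 genes of smallest p in the wider list and up to 6 more whose groups do not overlap, marker genes of smallest p, and the 3 nearest genes of Fas and Tnfsf10. Tnf, Tnfrsf23, Mlkl, Xiap, Casp9, Tnfaip3, Otulin, Ikbkg, Map3k7, Tab2, Tab3, Itch, Tax1bp1, Spata2, Usp4, Lyz2, Xist and Ddx3y were added after their values were seen. Some genes that the rule names are not reported here; they stay in the counts and medians over lists.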

Additional observations from a re-analysis of the deposited data

How the results depend on the processing

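For the 9 members, 121 of 126 log2 fold changes under 14 alternatives kept their direction and their side of the threshold. The 5 that changed sign were Fadd with library-size scaling (0.0076) and with a library left out (range −0.24 to 0.16), Tnfrsf1a in 2 fits with a library left out (−0.017 to 0.19), and Cflar in 1 (−0.096 to 0.30). The members' median was 0.18 to 0.31 and that of the wider list 0.13 to 0.22 with each library left out. For 20 named genes of the wider list 278 of 280 values were likewise unchanged, and DESeq2 called the other 2, Tnfrsf1b and Traf1.

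edgeR called 0 of all genes, with 982 at an unadjusted p under 0.05, 15 at an adjusted p under 0.10, and 0 with each library left out. limma voom called 0, with 1043 at an unadjusted p under 0.05. DESeq2 called 528, and 1139, 785, 227 and 515 without anti-PD-L1 replicate 1, anti-PD-L1 replicate 2, IgG replicate 1 and IgG replicate 2, with 1, 0, 0 and 0 of the members among them (the 1 being Tnfsf10, fits added after seeing the data). With the replicate block, edgeR called 0 genes and 0 members, and Tnfsf10 had a log2 fold change of 0.84 (adjusted p = 0.56). The replicate numbers are not known to pair the mice, and the deviations of same-numbered libraries correlated at 0.1 across genes. Members whose anti-PD-L1 values all lay above the IgG values numbered 6 to 9 with each library left out, beside 26.5% to 39.5% of all genes, and the wider list had 20 to 30. Fas and Tnfrsf10b had the fewest counts of the members, 186 to 412 per library. The 95% intervals of 8 of the 9 members held a log2 fold change of 0.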
